A study of Mus musculus with 26 samples.

Results

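The total RNA of the striatum of mice carrying a G2019S LRRK2 transgene (GS LRRK2 TG) was compared with that of their controls for all 8576 transcripts of the table deposited for this genotype, out of 9602 transcripts listed over the series. The measure was the log2 ratio of the RNA-Seq mean of GS LRRK2 TG to the RNA-Seq mean of the control, with negative values lower in GS LRRK2 TG, and only these group means were deposited. Most transcripts stood close to the control, with 97.0% of log2 changes within 0.5 of 0. Among the rest, 233 transcripts (2.72%) were at -0.5 or below and 20 (0.233%) at 0.5 or above. The deposited control mean used for this held both GS/DA LRRK2 TG libraries beside the non-TG ones, and against the non-TG libraries alone 104 were lower and 100 higher. These control means also differ in their mix of a pair of library sets described below. Lists with lower medians than all transcripts included immediate early genes, splicing factors and genes shared by both kinds of spiny projection neuron, and the kinase gene *Prkcd* had the highest value in the table, 0.71. No transcript passed a test between genotypes in the libraries recovered from the means.

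LRRK2 is a large protein with a GTPase and a kinase domain, its best known substrates are Rab GTPases of membrane traffic, and substitutions in it cause inherited Parkinson's disease. The G2019S substitution lies in the kinase domain and raises its activity, while D1994A takes the activity away. Most neurons of the striatum are spiny projection neurons, which receive dopamine from the midbrain and belong either to a direct pathway, marked by the D1 receptor, or to an indirect pathway, marked by the D2 receptor. The mice were C57BL/6 and 3 months old. GS LRRK2 TG mice carried a tetracycline-regulated LRRK2 transgene with the G2019S substitution, driven in forebrain neurons by a CaMKII-tTA transgene, from high-copy lines kept on doxycycline until weaning. GS/DA LRRK2 TG mice carried the same kind of transgene with both G2019S and D1994A, and non-TG controls were littermates labelled wild-type in genotype. Each library was made from the caudate putamen of a pool of mice of mixed sex, by RNA-Seq of total RNA after removal of rRNA, so it holds all cell types of the tissue. The labels list 2 RNA-Seq libraries of GS LRRK2 TG, 3 of non-TG and 2 of GS/DA LRRK2 TG.

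The control mean held other libraries beside the non-TG ones. Each mean is an average of whole read numbers divided by size factors and was deposited with 10 significant digits, so the reads behind it could be worked out. The reads of both GS LRRK2 TG libraries were recovered for 8490 of 8576 transcripts (99.0%). The control mean of the same table was a mean of 5 libraries, the 3 non-TG libraries and both GS/DA LRRK2 TG libraries: with these 5, the reads came out whole for 8424 of 8424 transcripts that could be solved, and for 0% of them after the means had been shifted by a small amount. GS LRRK2 TG was therefore set against the deposited control mean and also against the non-TG libraries alone. The GS/DA LRRK2 TG values given here share the non-TG libraries with the GS LRRK2 TG values, and they are set beside them without a test.

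The 7 libraries fell into a pair of sets that crossed the genotypes. In 4 libraries (1 GS LRRK2 TG, non-TG A and C, 1 GS/DA LRRK2 TG) the reads came from coding sequence with a mean GC content of 54.6% to 55.3%, and in the other 3 (1 GS LRRK2 TG, non-TG B, 1 GS/DA LRRK2 TG) of 50.9% to 51.5%. They are called high-GC and low-GC below. Spearman's rho across transcripts was 0.969 to 0.991 for pairs of libraries of the same set and 0.375 to 0.620 for pairs of different sets, across genes that are not independent replicates. The coding sequence held 7860334 reads in the high-GC and 13457207 in the low-GC GS LRRK2 TG library. Non-TG A, B and C held 10932035, 11690330 and 7498236 reads, and the GS/DA LRRK2 TG libraries 13167491 (high-GC) and 11095796 (low-GC). Library C was non-TG by its place in the control mean and by the number of non-TG libraries in the labels. The GS LRRK2 TG mean holds 1 library of each set, whereas the control mean of 5 holds more high-GC than low-GC libraries. The mean of the 3 non-TG libraries holds A and C against B alone, and leans further to the high-GC set. Because these means weigh the sets unequally, the main results are also given within each set. They are the log2 difference of normalized reads, with a pseudocount of 10, between GS LRRK2 TG and the non-TG libraries of that set.

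The median log2 change was -0.02 with an SD of 0.206 across transcripts, and 55.7% of transcripts were below 0. Of the 233 lower transcripts, 222 were below 0 in both sets and 66 reached -0.5 in both, whereas 64 reached -0.5 against the non-TG libraries alone. Of the 20 higher transcripts, 13 were above 0 in both sets and 2, *Txnip* and *Arrdc2*, reached 0.5 in both. Both groups of transcripts were picked by means that hold these same libraries, so their agreement with the sets is partly built in. Against the non-TG libraries alone the counts were nearly even, 100 higher and 104 lower. The high-GC set gave 82 higher and 1259 lower, the low-GC set 167 higher and 279 lower. After the median of transcripts of like GC content had been taken off, the high-GC set gave 166 higher and 467 lower. The same correction gave 141 higher and 206 lower in the low-GC set, over 8338 transcripts in each. Over all transcripts recovered, 95 of 8490 (1.12%) were at -0.5 or below in both sets and 12 (0.141%) at 0.5 or above in both, while 3059 (36.0%) were below 0 in both and 2625 (30.9%) above 0 in both. The excess of lower transcripts was thus present within each set and in the deposited means, and absent against the mean of the 3 non-TG libraries. That mean weighs the high-GC set more than the GS LRRK2 TG mean does. In the deposited means the excess varied with the control libraries used. Without the low-GC GS/DA LRRK2 TG library 441 were higher and 146 lower, and without B 255 and 212. Those controls lean further to the high-GC set. Lower transcripts stayed in excess without A, C or the high-GC GS/DA LRRK2 TG library, which leaves as many high-GC as low-GC control libraries. The part of this balance was not tested.

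A test between the 2 GS LRRK2 TG and the 3 non-TG libraries called 0 of 8490 transcripts (0%), by limma with Benjamini-Hochberg adjustment, and 0 at an unadjusted p under 0.05, with a lowest adjusted p of 1.00. With the library set as a term, limma with Benjamini-Hochberg adjustment again called 0 of 8490 transcripts, with a lowest adjusted p of 0.0770, and at an unadjusted p under 0.05 it gave 1107 lower (13.0%) and 240 higher (2.83%). An exact rank-sum test of 2 against 3 libraries, which leaves the set out of account, cannot go below a two-sided p of 0.2. With that term, leaving out 1 high-GC non-TG library gave 0 calls without C and 185 without A, nearly all lower, by the same method. Without either GS LRRK2 TG library, or without B, such a fit compares a lone GS LRRK2 TG library with non-TG in 1 set. The calls of those fits are not given. All directions given here are therefore descriptions of these libraries. Of all transcripts, 36.0% were below 0 in both sets and 30.9% above 0 in both. How many had GS LRRK2 TG lowest or highest in each set was not counted, so such orders of single genes are descriptions too. Where the labels call replicates biological they do not say which mice were pooled.

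**Figure D1:**
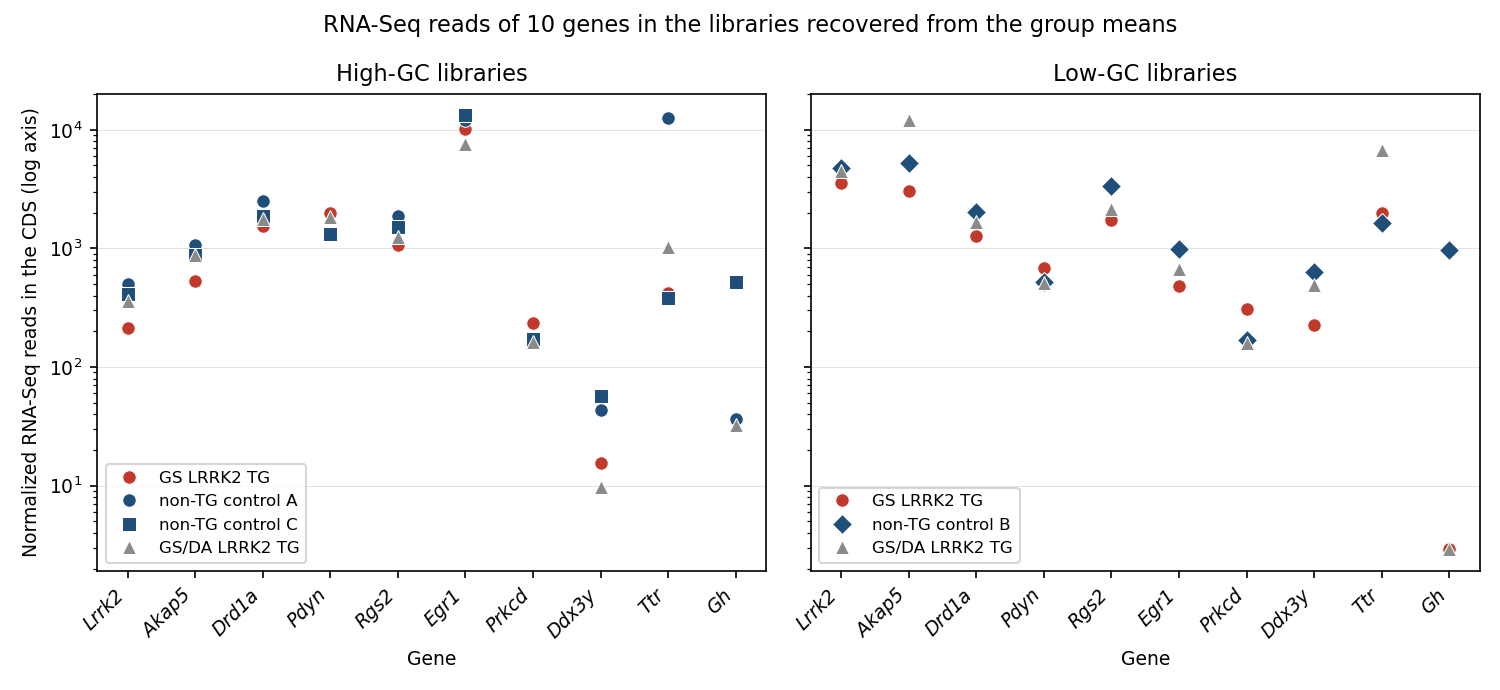
Normalized reads, on a log axis, of 10 genes in each of the 7 recovered RNA-Seq libraries, the 4 high-GC libraries and the 3 low-GC libraries apart, with the genotype shown by the marker. *Lrrk2*, *Akap5*, *Drd1a* and *Rgs2* are lower in the GS LRRK2 TG library than in the non-TG libraries of both sets, *Prkcd* and *Pdyn* are higher in both, and *Ttr* is high in a single non-TG library of the high-GC set.

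*Lrrk2* itself was counted at 214 normalized reads in the high-GC GS LRRK2 TG library, against 501 in non-TG A and 414 in C. In the low-GC set it was at 3549.6 in GS LRRK2 TG and 4717 in non-TG B. Both GS LRRK2 TG libraries were thus below every non-TG library of their set, while the gap between the sets was far wider than that between genotypes. The GS/DA LRRK2 TG libraries, at 362 and 4529.5, also stood below the non-TG libraries. The log2 difference with the library set as a term was -0.78 ± 0.17 (SE) over 2 and 3 libraries, whereas the change of the deposited means was -0.16, and 0.00 against the non-TG libraries alone. Reads on mouse *Lrrk2* hence did not mark the transgenic libraries, and whether the transgene's RNA would be counted there is not given in the sources used here. The driver gene *Camk2a* was not analysed here.

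Genes shared by both kinds of spiny projection neuron stood below the bulk of transcripts. Of 23 listed in the table, 18 were below 0, beside 55.7% of all transcripts, with a median of -0.14 (-0.20 against the non-TG libraries alone, -0.23 in the high-GC and -0.30 in the low-GC set), where all transcripts had -0.02, -0.01, -0.01 and -0.02. Of the 20 recovered, 12 were below 0 in both sets and 0 were above 0 in both, beside 36.0% and 30.9% of all transcripts. At an unadjusted p under 0.05 with the library set as a term, 10 of them were lower and 0 higher, beside 13.0% and 2.83% of all. Just 1, *Itpr1*, reached -0.5, beside 2.72% of all transcripts. In bulk tissue, fewer cells of a type and less RNA per cell cannot be told apart. Summed over these 20, which leave out *Ppp1r1b*, *Pde1b* and *Phactr1*, the high-GC GS LRRK2 TG library held 154992 normalized reads against 159337 and 164062 in non-TG A and C, and the low-GC library 108731 against 132812 in B. The GS/DA LRRK2 TG libraries held 148310 and 129228, below the non-TG libraries of each set too.

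The members ranged from -0.52 to 0.10. The transcription factor gene *Bcl11b*, needed for the maturation of spiny neurons, was at 2672 normalized reads in the high-GC GS LRRK2 TG library against 3477 and 3522 in non-TG, and at 1861 against 2249 in the low-GC set. It was lowest in GS LRRK2 TG in each set, also beside GS/DA LRRK2 TG (3136 and 2524), and its log2 change was -0.40 (-0.44 against the non-TG libraries alone). *Rarb*, a retinoic acid receptor, had -0.37 (-0.43 against the non-TG libraries alone), and within the sets -0.40 and -0.57. The forkhead factor genes *Foxp1* and *Foxp2* had -0.35 and -0.29, with -0.36 and -0.15 against the non-TG libraries alone. *Arpp21*, a cAMP-regulated phosphoprotein, stood at -0.27, with -0.46 in the high-GC and -0.52 in the low-GC set. *Itpr1*, the calcium release channel of the endoplasmic reticulum, was at 9117 against 16424 and 10695 in the high-GC set, and at 19964 against 26260.4 in the low-GC set. Its non-TG libraries were themselves far apart, and its change was -0.52 (-0.29 against the non-TG libraries alone). By contrast *Rgs9*, which speeds the end of G protein signals, was at 0.05 (-0.03 against the non-TG libraries alone), *Adcy5*, the main adenylyl cyclase of these neurons, at 0.01 (-0.12 against the non-TG libraries alone), and *Ppp1r1b*, which encodes DARPP-32, at -0.14, its libraries not recovered. All of these genes were picked after their values were seen, save *Itpr1* and *Ppp1r1b*.

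The direct and indirect pathway lists had like medians in the deposited means. The 7 direct pathway markers had a median of -0.05 (-0.16 against the non-TG libraries alone, 0.11 in the high-GC and -0.22 in the low-GC set) and the 6 indirect pathway markers -0.06 (-0.18 against the non-TG libraries alone, -0.06 in the high-GC and -0.06 in the low-GC set). Within the direct pathway, however, the D1 receptor and dynorphin stood on opposite sides. *Drd1a*, the D1 receptor gene (chromosome 13, 54146555 to 54151027, mm9), was at 1546 normalized reads in the high-GC GS LRRK2 TG library, 2503 and 1887 in non-TG A and C and 1762 in GS/DA LRRK2 TG, and at 1281, 2015 and 1685 in the low-GC libraries of the same order. GS LRRK2 TG was lowest in each set, beside non-TG A and C in the high-GC set and B alone in the low-GC set. The gene was named as the lowest of its list. Its log2 change was -0.48 (-0.59 against the non-TG libraries alone), and -0.56 ± 0.15 (SE) with the library set as a term (2 and 3 libraries), where limma with Benjamini-Hochberg gave an adjusted p of 0.167. *Pdyn*, the precursor of dynorphin opioid peptides, was at 1972 in the high-GC GS LRRK2 TG library against 1355 and 1309.8 in non-TG, and at 683 against 521 in the low-GC set. It was highest in GS LRRK2 TG in each set, with a change of 0.26 (0.32 against the non-TG libraries alone), although the high-GC GS/DA LRRK2 TG library came close at 1849.9. *Tac1*, the substance P precursor, was at 0.09 (0.13 in the high-GC and -0.11 in the low-GC set), and *Drd2* and *Adora2a*, the D2 receptor gene and an adenosine receptor gene of the indirect pathway, were at -0.03 and -0.03 (-0.18 and -0.18 against the non-TG libraries alone), also on opposite sides of 0 in the sets (0.15 and -0.06 for *Drd2*, 0.13 and -0.24 for *Adora2a*). *Penk*, the enkephalin precursor, was at -0.08, its libraries not recovered. *Sp9*, a transcription factor gene of the indirect pathway, reached -0.51 (-0.58 against the non-TG libraries alone) in the means but 0.67 in the low-GC set, where it had few reads (66.4 against 37.9). *Tac1*, *Drd2* and *Adora2a* are given for their roles.

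Of 39 genes of dopamine and cAMP signalling, 27 were below 0 and 2 reached -0.5, beside 55.7% and 2.72% of all transcripts, with a median of -0.09 (-0.11 against the non-TG libraries alone, -0.13 in the high-GC and -0.10 in the low-GC set). *Akap5* (chromosome 12, 77425878 to 77435140, mm9), which anchors protein kinase A and calcineurin at excitatory synapses, was the lowest of them. It was at 526 normalized reads in the high-GC GS LRRK2 TG library against 1069 and 877 in non-TG, and at 3059 against 5249 in the low-GC set. The GS LRRK2 TG libraries were lowest in both sets, but the low-GC GS/DA LRRK2 TG library inside the control mean stood far above all others, at 12173. With it the log2 change was -1.18, and against the non-TG libraries alone -0.42. The difference with the library set as a term was -0.83 ± 0.14 (SE), at an adjusted p of 0.118 by limma with Benjamini-Hochberg (2 and 3 libraries). The other was *Gnai3*, an inhibitory G protein subunit, at -0.79 (-0.40 against the non-TG libraries alone), named after its values were seen. Outside the list, *Rgs2*, a brake on G protein signals that is induced by activity (chromosome 1, 145846468 to 145851291, mm9), was at 1059 against 1857 and 1528 in the high-GC and 1743 against 3384 in the low-GC set. It was lowest in GS LRRK2 TG in both, below GS/DA LRRK2 TG (1248 and 2130.2) as well, with a change of -0.53 (-0.69 against the non-TG libraries alone).

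Postsynaptic scaffold genes, 28 in the table, had a median of -0.15 (-0.03 against the non-TG libraries alone, -0.09 in the high-GC and -0.01 in the low-GC set), and 1 of them, *Akap5*, reached -0.5, beside 2.72% of all transcripts. *Homer1*, which ties metabotropic glutamate receptors to calcium stores, was at 367 normalized reads in the high-GC GS LRRK2 TG library against 883 and 769.7, and at 3484 against 5166 in the low-GC set. GS LRRK2 TG was below non-TG in each set, and its differences there, -1.15 and -0.57, were larger than the change of the means, -0.41 (-0.24 against the non-TG libraries alone). Outside the lists stood *Pdp1*, a phosphatase that switches on pyruvate dehydrogenase, and *Fat3*, an atypical cadherin. They had the lowest adjusted p of all transcripts in the fit with the library set as a term, and were named for it. That fit called 0 transcripts, with a lowest adjusted p of 0.0770 by limma with Benjamini-Hochberg. *Pdp1* was at 819 against 1668 and 1575 in the high-GC and 2097 against 3479.5 in the low-GC set. *Fat3* was at 213 against 480.3 and 428, and at 4468 against 7669. Both were lower in GS LRRK2 TG than in every other library of each set, with differences of -0.87 ± 0.13 (SE) and -0.94 ± 0.14 (SE). The change of the means against the non-TG libraries alone was -0.62 for *Pdp1* and -0.29 for *Fat3*.

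Immediate early genes, whose transcription follows neuronal activity, had the lowest median of all lists of 6 or more transcripts in the deposited means. Of 25 in the table, 20 were below 0 and 4 (*Nr4a2*, *Nr4a3*, *Egr2*, *Nr4a1*) reached -0.5, beside 55.7% and 2.72% of all transcripts, with a median of -0.27 (-0.43 against the non-TG libraries alone, -0.18 in the high-GC and -0.26 in the low-GC set). With the library set as a term, 9 were lower and 1 higher at an unadjusted p under 0.05, beside 13.0% and 2.83% of all transcripts. In both sets 14 were below 0, beside 36.0% of all. The summed list held 40245 normalized reads in the high-GC GS LRRK2 TG library, 42946 and 54249.8 in non-TG A and C and 32379.8 in GS/DA LRRK2 TG. In the low-GC set it held 9833, 13287 in non-TG B and 12046. The GS LRRK2 TG libraries were below the non-TG libraries in each set, and the GS/DA LRRK2 TG libraries were below them too. With the GS/DA LRRK2 TG libraries left out of the control, the median was further from 0 than with them or within either set. That control, however, weighs the high-GC set more than the GS LRRK2 TG mean does, and this list had most of its reads there. The same weighting enters the values of single genes below, and its part was not tested.

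Among the zinc finger factors of this list, *Egr1* was at 10244 normalized reads in the high-GC GS LRRK2 TG library against 12078 and 13266 in non-TG, and at 486 against 995 in the low-GC set. *Egr2* was at 339 against 358 and 679.9, and at 131 against 359. For both, GS LRRK2 TG was below non-TG in each set and above GS/DA LRRK2 TG in the high-GC set (7618 and 225), and *Egr2* had nearly the level of non-TG A. Their log2 changes were -0.37 (-0.71 against the non-TG libraries alone) and -0.57 (-0.99 against the non-TG libraries alone). *Nr4a1*, an orphan nuclear receptor named here after its values were seen, had -0.51 (-0.91 against the non-TG libraries alone), and its GS LRRK2 TG libraries were at 4395 and 351. Non-TG C stood above A for most of these genes, for *Nr4a1* at 7578 against 5035. *Arc*, which drives the removal of AMPA receptors from synapses, was at -0.39 (-0.62 against the non-TG libraries alone), and *Fos* at -0.27 (-0.50 against the non-TG libraries alone), both also chosen after the fact. *Nr4a2* had the lowest value of the list, -0.72, but -0.04 against the non-TG libraries alone and 0.10 in the low-GC set, where it was at 191 against 177. *Npas4*, a factor induced by depolarisation, stood on the other side at 0.29 (0.18 against the non-TG libraries alone), with 336 against 151 in the low-GC set and GS LRRK2 TG between A and C in the high-GC set.

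Splicing factors also stood below the control. Of 58 transcripts of splicing factors, 47 were below 0 and 7 reached -0.5, beside 55.7% and 2.72% of all transcripts, and 0 reached 0.5, beside 0.233%. Their median was -0.20 (-0.13 against the non-TG libraries alone, -0.25 in the high-GC and -0.21 in the low-GC set). At an unadjusted p under 0.05 with the library set as a term, 27 were lower and 0 higher, beside 13.0% and 2.83% of all transcripts. *Prpf38b*, a factor of the spliceosome, was at 92.4 normalized reads in the high-GC GS LRRK2 TG library against 243 and 156 in non-TG, and at 173 against 343 in the low-GC set. GS LRRK2 TG was lowest in both, and non-TG A and C were themselves well apart. Its change was -1.23 (-0.90 against the non-TG libraries alone), with the low-GC GS/DA LRRK2 TG library at 645. *Srsf7*, an SR protein gene of the list, had -0.59. Outside the list, *Hnrnph3*, an RNA-binding protein, had -0.71 (-0.59 against the non-TG libraries alone), and *Clk1* and *Clk4*, kinases that phosphorylate SR splicing factors, had -0.71 (-0.52 against the non-TG libraries alone) and -0.78 (-0.52 against the non-TG libraries alone). Relative to transcripts of like GC content *Clk1* was at 0.08 and *Hnrnph3* at -0.31 in the high-GC set. These 4 genes, all but *Hnrnph3* picked after their values were seen, were among 23 transcripts at -0.5 or below in the deposited means, against the non-TG libraries alone and in both sets.

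Several of the lowest transcripts with both means at least 500 were in no list. *Nin*, which anchors microtubules at the centrosome, was at 232 normalized reads in the high-GC GS LRRK2 TG library against 503 and 387 in non-TG, and at 826 against 1289 in the low-GC set. *Filip1*, a filamin-binding protein, was at 340.3 against 637 and 434, and at 753 against 1302. Both were lowest in GS LRRK2 TG in each set and highest of all in the low-GC GS/DA LRRK2 TG library (2132 and 1858), and their changes were -0.82 (-0.46 against the non-TG libraries alone) and -0.79 (-0.53 against the non-TG libraries alone). *Npm1*, the nucleolar chaperone nucleophosmin, and *Ddx50*, a nucleolar helicase, had the same order, with -0.75 (-0.23 against the non-TG libraries alone) and -0.73 (-0.31 against the non-TG libraries alone). In the high-GC set *Npm1* and *Ddx50* were at -0.76 and -0.95, but at -0.10 and -0.37 relative to transcripts of like GC content. *Trim44*, of the tripartite motif family, had -0.80 (-0.58 against the non-TG libraries alone).

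Chromatin regulators and zinc finger proteins of the Zfp, Zbtb and Zscan series had a like position in the deposited means. Among 42 chromatin regulators, 34 were below 0 and 1, *Chd1*, reached -0.5, beside 55.7% and 2.72% of all transcripts, with a median of -0.19 (-0.02 against the non-TG libraries alone, -0.31 in the high-GC and -0.12 in the low-GC set). Among 180 transcripts of these zinc finger proteins, 143 were below 0 and 18 reached -0.5, beside the same shares of all, 55.7% and 2.72%, with a median of -0.12 (-0.08 against the non-TG libraries alone, -0.19 in the high-GC and -0.13 in the low-GC set). *Zfp189* was the lowest of these at -0.93 (-0.52 against the non-TG libraries alone), from 29.4 reads against 78.0 and 53.0 and 152 against 259.9. Chaperones of the cytosol and of mitochondria, 33 in the table, had a median of -0.13 (-0.12 against the non-TG libraries alone, -0.15 in the high-GC and -0.14 in the low-GC set), and 3, *Dnaja1*, *Dnajb4* and the mitochondrial chaperonin gene *Hspd1*, reached -0.5, beside 2.72% of all transcripts. *Dnaja1*, a partner of Hsp70, was at -0.69 (-0.42 against the non-TG libraries alone) with -0.61 and -0.62 within the sets, but -0.07 in the high-GC and -0.47 in the low-GC set relative to transcripts of like GC content, while *Hspa8*, the most abundant chaperone, stood at 0.03. Ubiquitin-specific proteases, 37 in the table, were at -0.07 (0.01 against the non-TG libraries alone, -0.36 in the high-GC and -0.03 in the low-GC set).

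The change ran with base composition, in which the lower lists differed. The median GC content of the coding sequence was 50.2% for splicing factors, 49.8% for chromatin regulators and 51.8% for the zinc finger proteins, but 54.3% for shared spiny neuron genes and 59.5% for immediate early genes. Across 8422 transcripts with a matched coding sequence, Spearman's rho of the log2 change with GC content was 0.242 and with coding length -0.146, genes not being independent replicates. Within the sets the rho with GC content was 0.633 (high-GC) and 0.336 (low-GC). Against the non-TG libraries alone, a control that leans to the high-GC set, it was -0.229. Libraries of the same genotype also differed with GC content. For non-TG A minus C, both high-GC, the rho was -0.577 and the SD 0.301, with 491 transcripts at 0.5 or above and 139 at -0.5 or below. For the low-GC GS/DA LRRK2 TG library minus non-TG B the rho was -0.331. The median GC content was 52.8% for all transcripts and 46.7% for the 233 lower ones. In the 843 transcripts with the lowest GC content, 35.9% to 44.7%, the median change was -0.16, with -0.58 in the high-GC and -0.14 in the low-GC set and 0.07 against the non-TG libraries alone. In a like number with the highest it was -0.02, 0.13, 0.08 and -0.11. After the median of transcripts of like GC content had been taken off, 38 higher and 116 lower transcripts were past 0.5, and the medians were -0.12 for splicing factors, -0.10 for chromatin regulators, -0.08 for the zinc finger proteins, -0.15 for shared spiny neuron genes and -0.22 for immediate early genes, where all transcripts have 0.00. The same correction within the high-GC set gave -0.10, -0.15, -0.11, -0.27 and -0.32 in the same order, and 0.00 for ubiquitin-specific proteases. Within the low-GC set it gave -0.13, -0.02, -0.11, -0.33, -0.34 and 0.05, so chromatin regulators lay close to all transcripts there, as they did against the non-TG libraries alone. The part of base composition in these results was not tested further.

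**Figure D2:**
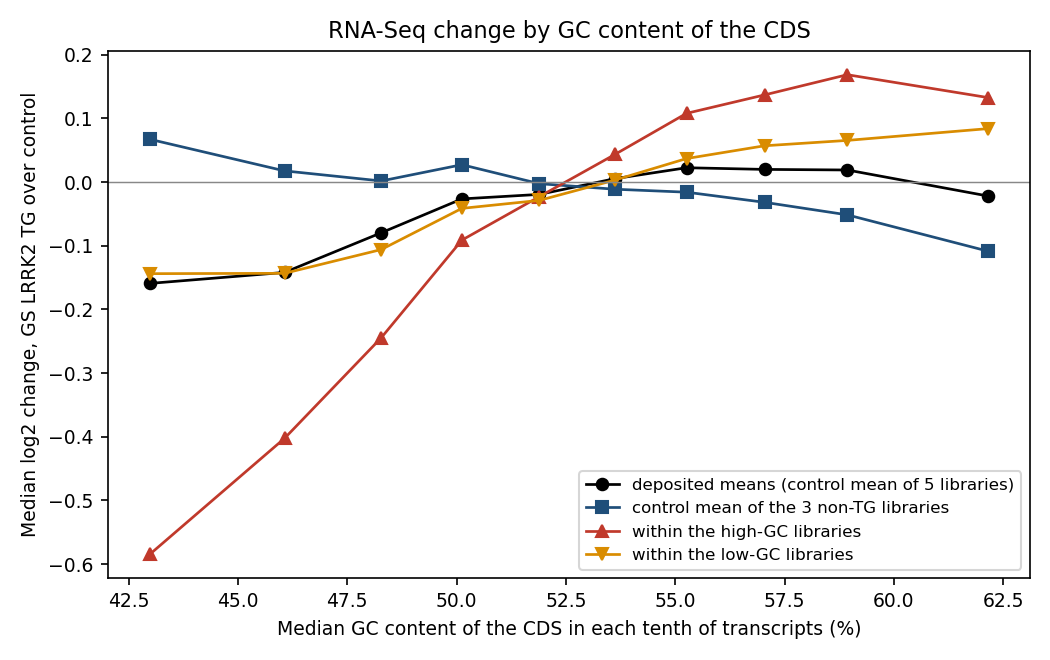
Median log2 change (y axis) of the transcripts in 10 groups of like size by coding-sequence GC content (x axis), for the deposited means, the non-TG libraries alone as control, and the high-GC and low-GC sets. The high-GC line climbs from -0.58 in the group of lowest GC content to 0.13 in that of the highest, and the line against the non-TG libraries alone runs the other way, from 0.07 to -0.11.

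Higher transcripts were few. *Prkcd*, which encodes protein kinase C delta (chromosome 14, 31408542 to 31439396, mm9), was at 234 normalized reads in the high-GC GS LRRK2 TG library against 171 and 172 in non-TG, and at 309.9 against 168 in the low-GC set. Both GS LRRK2 TG libraries stood above every other library of their set, the GS/DA LRRK2 TG libraries being at 162 and 159. Its log2 change was 0.71 (0.67 against the non-TG libraries alone), and the difference with the library set as a term was 0.60 ± 0.20 (SE), with an adjusted p of 0.197 by limma with Benjamini-Hochberg (2 and 3 libraries). *Txnip*, which binds and inhibits thioredoxin, and the related arrestin-domain gene *Arrdc2* were at 0.58 and 0.56, and were taken up after their values were seen. *Txnip* varied widely among non-TG libraries, from 255 in A to 493 in C, with GS LRRK2 TG at 574 in that set. *Tsc22d3*, a glucocorticoid-induced leucine zipper protein, was at 951 against 582 and 758, and at 828 against 567. It was highest in GS LRRK2 TG in both sets, at 0.45 (0.48 against the non-TG libraries alone).

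*Dchs1*, a large cadherin that binds Fat cadherins, had the lowest adjusted p among higher transcripts, 0.139 by limma with Benjamini-Hochberg, and a difference of 0.78 ± 0.15 (SE) with the library set as a term. It was at 905 against 509 and 534 in the high-GC set and at 235 against 133 in the low-GC set. The GS/DA LRRK2 TG libraries, at 675 and 182, lay between the other genotypes in both sets. *Otof*, a calcium sensor of vesicle fusion, and *Islr2*, a membrane protein of growing axons, were among the 12 transcripts at 0.5 or above in both sets, with changes of the means of 0.48 (0.65 against the non-TG libraries alone) and 0.25 (0.45 against the non-TG libraries alone). Several of the highest means rested on a single set. *Tuba3a* had 0.55 (0.79 against the non-TG libraries alone) with at most 5.89 normalized reads in any high-GC library and 6052 against 5238 in the low-GC set. *Kcnt2*, a sodium-activated potassium channel, had 0.63 (0.89 against the non-TG libraries alone) in the means and -0.70 in the high-GC set, where non-TG A and C held 22.8 and 13.2 reads. *Ankrd12* was at 0.48 in the means although GS LRRK2 TG was below non-TG in both sets, 50.4 against 116 and 138, and 22462 against 23017. Its reads came nearly all from low-GC libraries, which make up a larger share of the GS LRRK2 TG mean than of the control mean.

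The medians of microglial and astrocyte genes stood a little above the control. Of 11 microglial transcripts, 9 were above 0 in both sets, beside 30.9% of all transcripts, with a median of 0.13 (0.13 against the non-TG libraries alone, 0.19 in the high-GC and 0.28 in the low-GC set). No member was past 0.5, where 2.72% of all transcripts were at -0.5 or below and 0.233% at 0.5 or above. *Trem2*, a lipid receptor of microglia, was at 196 normalized reads against 176 and 162 in the high-GC and 195 against 126 in the low-GC set. It was highest in GS LRRK2 TG among the non-TG and GS LRRK2 TG libraries of each set, although the high-GC GS/DA LRRK2 TG library had 196, and its change was 0.32 (0.34 against the non-TG libraries alone). *Cx3cr1*, the fractalkine receptor, stood lowest of the list at -0.19. The summed list had 12126 in the high-GC GS LRRK2 TG library against 9938 and 11089.6, and 9789.9 against 8908 in the low-GC set. Astrocyte genes, 24 in the table, had a median of 0.05 (0.14 against the non-TG libraries alone, 0.15 in the high-GC and 0.10 in the low-GC set), from -0.38 (-0.07 against the non-TG libraries alone) for the water channel gene *Aqp4* to 0.36 (0.37 against the non-TG libraries alone) for *S100b*. The 20 recovered summed to 57169.5 in the high-GC GS LRRK2 TG library, 51068.9 and 48901.5 in non-TG and 56441 in GS/DA LRRK2 TG. Their low-GC sums were level, 44078 in GS LRRK2 TG and 44498 in B, with 47626 in GS/DA LRRK2 TG. *Gfap*, the intermediate filament gene, chosen after its values were seen, was highest in GS LRRK2 TG in both sets, at 1459 against 875 and 1096 and at 863 against 703.

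Oligodendrocyte genes had a median of 0.00 (0.00 against the non-TG libraries alone, 0.13 in the high-GC and 0.13 in the low-GC set) over 25 transcripts, 13 of them above 0 in both sets, beside 30.9% of all transcripts. *Opalin*, a membrane protein of myelinating cells, was at 0.51 (0.38 against the non-TG libraries alone) and *Enpp2*, which the choroid plexus also makes, at -0.54 (-0.48 against the non-TG libraries alone), though 0.12 and -0.12 in the low-GC set. *Mbp*, the myelin basic protein gene, was at 0.22 (0.14 against the non-TG libraries alone), with 17660 reads against 12445 and 14342 and 5859 against 5264. *Apod*, a lipocalin of glia outside these lists, had 0.52 (0.56 against the non-TG libraries alone) and was highest in GS LRRK2 TG in both sets. Cortical projection neuron genes, a check of the dissection, had a median of -0.12 (0.02 against the non-TG libraries alone, -0.11 in the high-GC and 0.13 in the low-GC set), 1 of 15 reaching -0.5, beside 2.72% of all transcripts. That gene, *Slc17a7*, the vesicular glutamate transporter of cortical neurons, was at 674 against 1557 and 823 with 3221 in GS/DA LRRK2 TG, and at 909.9 against 493 with 1388. It was highest in GS/DA LRRK2 TG in each set and above non-TG in the low-GC GS LRRK2 TG library, so its change of -0.92 became -0.27 without the GS/DA LRRK2 TG libraries. Striatal interneuron genes, 14 in the table, were at -0.03 (-0.05 against the non-TG libraries alone, 0.09 in the high-GC and 0.04 in the low-GC set), with *Calb2*, the calretinin gene, at 0.52 (0.77 against the non-TG libraries alone).

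**Figure D3:**
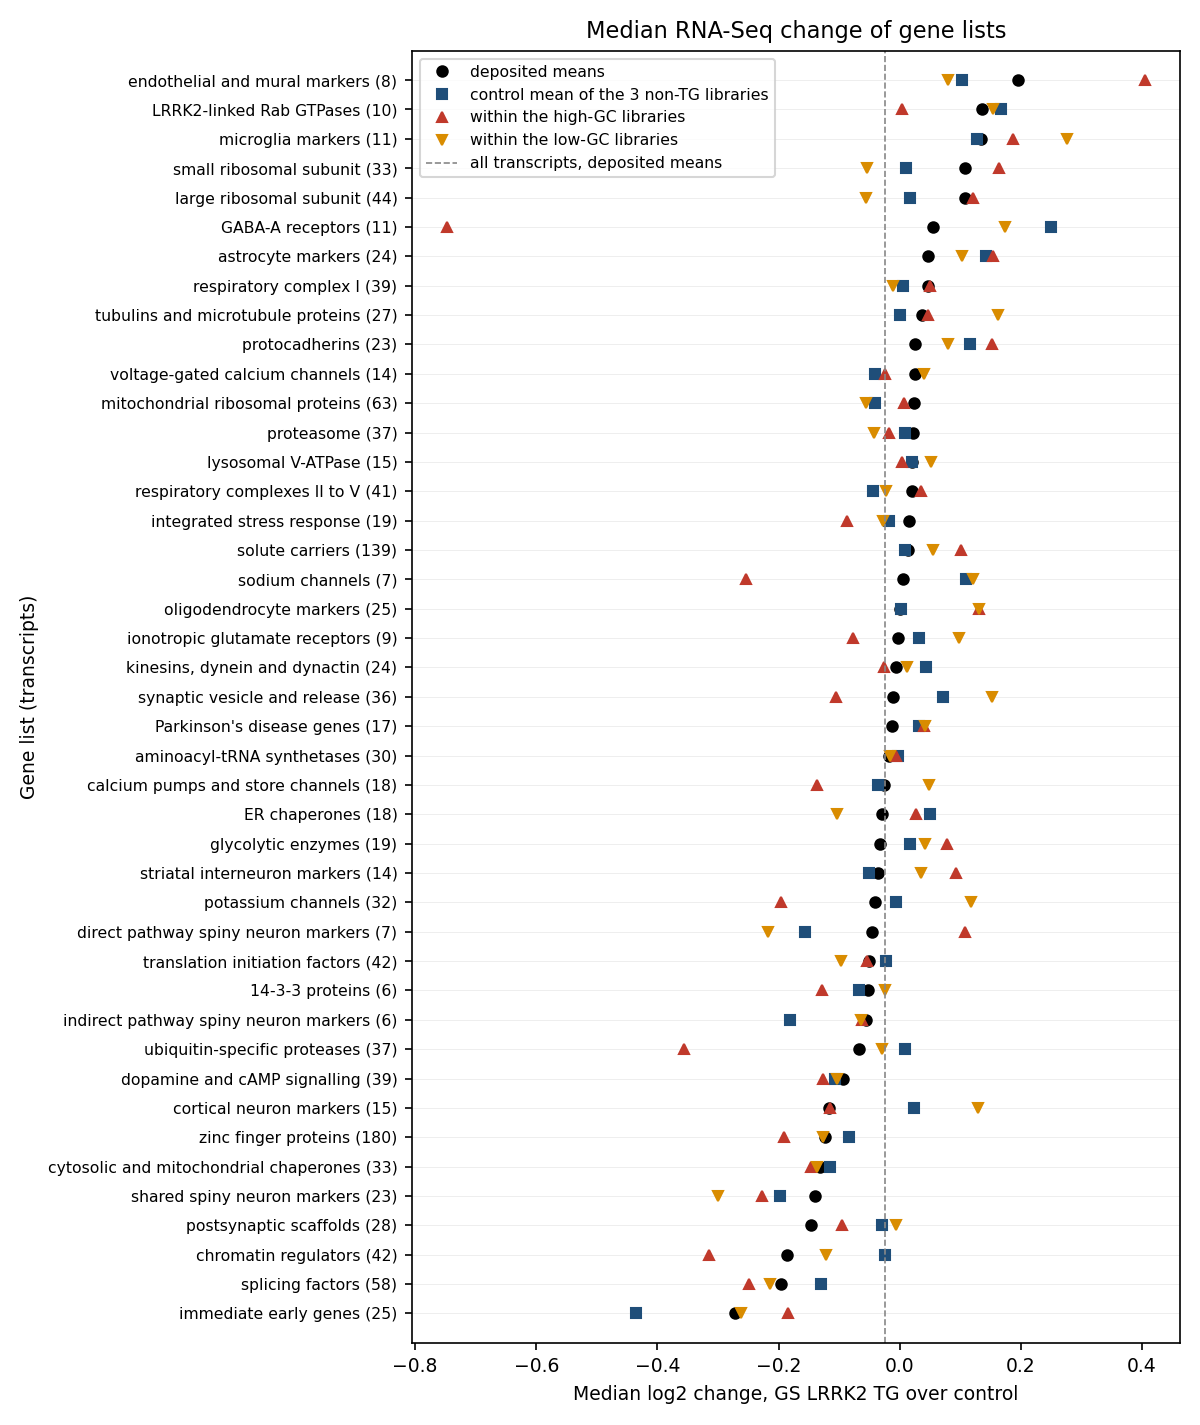
Median log2 change (x axis) of each gene list with 6 or more transcripts, for the deposited means, the non-TG libraries alone as control, and the high-GC and low-GC sets, with a dashed line at the median of all transcripts. Immediate early genes lie lowest in the deposited means at -0.27, and endothelial and microglial lists are highest with LRRK2-linked Rab GTPases.

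Few vascular and ventricular genes were listed, and some of them were high in a single library. Of 24 choroid plexus genes written, 4 were in the table and 2, *Ttr* and *Enpp2*, reached -0.5, beside 2.72% of all transcripts, with a median of -0.46 (-0.39 against the non-TG libraries alone, -0.52 in the high-GC and -0.09 in the low-GC set). *Ttr*, the thyroxine carrier that the choroid plexus secretes, was at 421 in the high-GC GS LRRK2 TG library, 12509 in non-TG A and 379.7 in C, and at 1982 in the low-GC GS LRRK2 TG library and 1632 in B. Non-TG A stood far above every other high-GC library, while GS LRRK2 TG lay close to C in that set and above B in the low-GC set. The whole list summed to 18297 in A against 3531 in the high-GC GS LRRK2 TG library and 2959.7 in C. Its low-GC sums were 5152 in GS LRRK2 TG, 5075 in B and 11721 in GS/DA LRRK2 TG. Endothelial and mural genes, 8 of 24 written, had a median of 0.20 (0.10 against the non-TG libraries alone, 0.40 in the high-GC and 0.08 in the low-GC set), with *Vtn*, a pericyte gene, highest at 0.46. Of 3 globin transcripts, which share reads between near copies and are uncertain, the libraries of *Hba-a2*, the most abundant, were not recovered. The other 2, *Hbb-b1* and *Beta-s*, summed to 19704 in the high-GC GS LRRK2 TG library against 11747 and 12757, and to 2533 against 4715 in the low-GC set. GS LRRK2 TG was thus highest in a set and below non-TG in the other.

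No gene of the lists of LRRK2-linked Rab GTPases, inherited Parkinson's disease or 14-3-3 proteins was past 0.5 in the deposited means. Over all transcripts, just 2.72% were at -0.5 or below and 0.233% at 0.5 or above. Of 15 Rab GTPase genes linked to LRRK2, 10 were in the table and 8 were above 0, while 55.7% of all transcripts were below 0, with a median of 0.14 (0.17 against the non-TG libraries alone, 0.00 in the high-GC and 0.15 in the low-GC set). *Rab8a*, which guides vesicles to the plasma membrane and the cilium, was the highest at 0.28, but its libraries, 867 against 766 and 834 and 2409 against 2421, differed little within the sets. *Rab12* was at 0.18 (0.24 against the non-TG libraries alone), yet -0.03 and -0.03 within the sets, and *Rab10* at 0.05 (0.22 against the non-TG libraries alone), -0.13 in the high-GC and 0.00 in the low-GC set. *Rab3b*, a Rab of synaptic vesicles, stood above non-TG in both sets, at 2409.8 against 1563 and 2136, and 547 against 376. *Rab5a*, of early endosomes, was lowest in the deposited means at -0.12, but at 0.14 against the non-TG libraries alone, with -0.60 in the high-GC and 0.17 in the low-GC set. The 17 genes of inherited Parkinson's disease in the table had a median of -0.01 (0.03 against the non-TG libraries alone, 0.04 in the high-GC and 0.04 in the low-GC set), from -0.26 for *Dnajc13* to 0.29 for *Gigyf2*. Against the non-TG libraries alone, however, *Dnajc13* was at 0.13, with -1.03 in the high-GC and -0.06 in the low-GC set, and *Gigyf2* was at 0.41, with -0.33 and -0.04. The 6 genes of 14-3-3 proteins, which bind phosphorylated LRRK2, lay between -0.20 and 0.06.

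The RNA of the translation machinery differed little in the medians of its lists. Transcripts of small and large ribosomal subunit proteins, 33 and 44, had medians of 0.11 and 0.11 in the deposited means, and 0.01 and 0.02 against the non-TG libraries alone. Within the sets they were on opposite sides of 0, 0.16 and 0.12 in the high-GC and -0.05 and -0.05 in the low-GC set. *Rps15*, a ribosomal protein that LRRK2 phosphorylates, was at 0.12. Of 42 translation initiation factor transcripts, 2 reached -0.5, beside 2.72% of all transcripts, with a median of -0.05 (-0.02 against the non-TG libraries alone, -0.05 in the high-GC and -0.10 in the low-GC set). They were *Eif3j*, a loosely bound subunit of eIF3, at -0.77 (-0.47 against the non-TG libraries alone), and *Eif2s2*, the beta subunit of eIF2, at -0.52 (-0.07 against the non-TG libraries alone). The helicase genes *Eif4a1* and *Eif4a2* were at -0.04 (-0.06 against the non-TG libraries alone) and -0.32 (-0.11 against the non-TG libraries alone), *Eif4b*, their cofactor, at 0.00. Within the high-GC and low-GC sets *Eif4a2* was at -0.78 and -0.30, and at -0.24 and -0.14 relative to transcripts of like GC content. *Ddx3x*, another helicase of initiation, had 0.26 (0.67 against the non-TG libraries alone) in the means but -0.97 in the high-GC and 0.25 in the low-GC set. Genes of the integrated stress response had a median of 0.02 (-0.02 against the non-TG libraries alone, -0.09 in the high-GC and -0.03 in the low-GC set) over 19 transcripts, and *Atf4*, their main transcription factor gene, was at 0.07 (-0.02 against the non-TG libraries alone), and at -0.16 and -0.05 within the sets. The 30 aminoacyl-tRNA synthetases were at -0.02 and the 37 proteasome transcripts at 0.02, the latter -0.02 and -0.04 within the sets.

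Y-linked transcripts and growth hormone differed widely between libraries. All 3 Y-linked transcripts in the table were at -0.5 or below, where 2.72% of all transcripts were. Their sum was 141 normalized reads in the high-GC GS LRRK2 TG library, 165 and 269 in non-TG A and C and 61.4 in GS/DA LRRK2 TG. In the low-GC set it was 539, 1702 in B and 1427 in GS/DA LRRK2 TG. The low-GC GS LRRK2 TG library was far below both others of its set, while in the high-GC set the GS/DA LRRK2 TG library was lowest. *Uty* and *Kdm5d*, histone demethylases of the Y chromosome, had changes of -1.38 and -0.76, and *Ddx3y*, the Y-linked partner of *Ddx3x*, -1.03. Pools of 3 mice held 1 or 2 males, which pools held which is not given in the sources used here, and the part of sex in other results was not tested. *Gh*, the growth hormone gene of the pituitary, had the lowest value of the table, -4.00. It was at 974 in non-TG B and 525 in C, against 36.1 in A, 36.4 and 2.95 in GS LRRK2 TG and 32.3 and 2.92 in GS/DA LRRK2 TG. A pair of non-TG libraries thus carried nearly all of its reads, and non-TG A was level with the high-GC GS LRRK2 TG library.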

How the data were processed

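Per the submitters' processing notes and methods, the authors used CASAVA 1.8, aligned RNA-Seq reads to mm9 with TopHat 2.0.11 and Bowtie2 2.2.2, counted reads in the coding sequence, dropped transcripts with few reads and normalized with DESeq 1.20. The deposited RNA-Seq signal is a mean over libraries of reads divided by size factors, with no SD. The authors' log2 translation efficiencies, their differences and *z* scores, the footprinting means and 5′UTR folding energies were not used here.

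Changes are log2 ratios of the means, with no pseudocount or filter, called at 0.5. Reads per library were solved from the step sizes of each mean, whose size factors lay within 0.408% of a recomputed median of ratios. limma 3.58.1 in R 4.3.3 was fitted with a trend to log2 of normalized reads plus 10, with Benjamini-Hochberg adjustment over 8490 transcripts, and calls were made at 0.05. The p-values measure only the spread between these libraries. Symbols were matched to the NCBIM37 (mm9) annotation for 98.2% of transcripts (8329 by symbol, 93 by an older symbol) for GC content, length and coordinates, and no count model was run. Near copies, such as globins, *Gapdh*, *Tuba1a* and *Dynlt1b*, and overlapping genes may share reads and are uncertain.

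Named genes were *Lrrk2*, the 12 highest and 12 lowest changes among transcripts with both means at least 500, the highest, lowest and most abundant member of each of 49 lists, all members of the LRRK2, Rab, 14-3-3, Y-linked and globin lists, genes named in the study, and the 10 lowest adjusted p in each direction, some of which are not reported here. Members and lists were chosen with earlier results of these data known, and the library sets, the recovery of the 5-library mean, the control of 3 libraries, the changes within sets and the GC correction after the data were seen. Alternatives were filters on the means, pseudocounts, centring, call limits and leaving out each library. Methods were tested on simulated data. Python 3.11.15, numpy 2.4.6, pandas 2.3.3, scipy 1.17.1 and matplotlib 3.10.9 were used.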

Additional observations from a re-analysis of the deposited data

How the results depend on the processing

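The counts of transcripts past a log2 change of 0.5 were not stable, and unless a reason is given the cause was not tested. In place of 20 higher and 233 lower transcripts, fewer transcripts gave 11 and 123 with both means at least 250, 5 and 76 at 500, and 3 and 31 at 1000. A limit of 0.3 gave 193 and 944, and a limit of 1 gave 0 and 6. Against the 3 non-TG libraries alone there were 100 higher and 104 lower, in the high-GC set 82 and 1259, in the low-GC set 167 and 279, and after taking off the median of transcripts of like GC content 38 and 116. The same correction within the sets gave 166 and 467 (high-GC) and 141 and 206 (low-GC). The high-GC GS LRRK2 TG library alone against the control mean gave 1853 and 2876, the low-GC library alone 1440 and 2525, and both had the same sign in 13.8% of transcripts. Leaving out 1 library of the control mean gave 9 (without A) to 441 (without low-GC GS/DA LRRK2 TG) higher and 146 (without low-GC GS/DA LRRK2 TG) to 659 (without C) lower transcripts. The other such pairs of higher and lower counts were 255 and 212 without B, 58 higher without C, 34 and 658 without high-GC GS/DA LRRK2 TG, and 536 lower without A. A pseudocount of 10 (16 and 210), centring on the median (29 and 189) and 1 transcript per symbol (20 and 233) kept both counts within 1.5 times.

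The SD across transcripts, 0.206, became 0.366 in the high-GC set and 0.25 to 0.290 without 1 library of the control mean, the highest without C. Of 49 lists, 9 had a median at least 0.1 below that of all transcripts, and 17 did in the high-GC set. The rho of the change with GC content, 0.242, reversed to -0.229 against the non-TG libraries alone and was 0.633 in the high-GC set, and that with coding length, -0.146, reversed to 0.0777 and was -0.0478 in the low-GC set. The count of transcripts called by limma, 0 in fits on all libraries (pseudocounts of 1, 10 and 50, the set as a term, 5 control libraries, 7 libraries), was 0 to 340 when 1 library was left out with the set as a term: 6 and 340 without the high-GC and the low-GC GS LRRK2 TG library, 185 without A, 333 without B and 0 without C. There a lone library is assumed to vary like the others.

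Single genes with a value past 0.5 that reversed were, in the low-GC set, *Ttr* (0.28), *Slc17a7* (0.87), *Nr4a2* (0.10) and *Sp9* (0.67), and in the high-GC set *Kcnt2* (-0.70). Against the non-TG libraries alone, *Usp53* (0.12) and *Kif5b* (0.0887) reversed. The low-GC GS LRRK2 TG library alone against the control mean reversed *Npm1* (0.0173), *Fat3* (0.19), *Ddx50* (0.0364), *Nr4a2* (0.0521), *Wwp1* (0.19), *Slmap* (0.15), *Usp53* (0.35), *Eif2s2* (0.14), *Chd1* (0.24) and *Kif5b* (0.30). The high-GC library alone reversed *Sp9* (0.27), *Calb2* (-0.39), *Apod* (-0.10), *2900053A13Rik* (-1.03), *Tuba3a* (-7.06) and *Kcnt2* (-4.28). No paired analysis was possible because the recovered libraries carry no replicate number, and the library set stood as a term in its place. Genes of few reads, such as *Tuba3a* in the high-GC set, limit what the depth can show.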

Other observations

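The 11 GABA-A receptor subunit transcripts had a median of 0.05 (0.25 against the non-TG libraries alone, -0.75 in the high-GC and 0.17 in the low-GC set), and 4 of them were below 0 and 0 above 0 in both sets, beside 36.0% and 30.9% of all transcripts. Relative to transcripts of like GC content the high-GC median was -0.24. *Gabrb2*, a beta subunit, was at 26.6 normalized reads in the high-GC GS LRRK2 TG library against 122 and 107 in non-TG and 67.1 in GS/DA LRRK2 TG, and at 933 against 956 in the low-GC set. The genotypes were well apart in the high-GC set, where the gene had few reads, and level in the low-GC set, where it had most, and its deposited change was 0.06 (0.28 against the non-TG libraries alone). It was chosen after its values were seen. The 7 sodium channel transcripts were at 0.01 (0.11 against the non-TG libraries alone, -0.25 in the high-GC and 0.12 in the low-GC set), lowest for *Scn3a* at -0.23 (0.04 against the non-TG libraries alone). Potassium channels (32 transcripts) were at -0.04 (-0.01 against the non-TG libraries alone, -0.20 in the high-GC and 0.12 in the low-GC set), calcium channels (14) at 0.02 (-0.04 against the non-TG libraries alone, -0.02 in the high-GC and 0.04 in the low-GC set), and calcium pumps and store channels (18) at -0.03 (-0.04 against the non-TG libraries alone, -0.14 in the high-GC and 0.05 in the low-GC set), with the sodium-calcium exchanger gene *Slc8a1* highest at 0.48 (0.88 against the non-TG libraries alone, -0.14 in the high-GC and 0.34 in the low-GC set). Ionotropic glutamate receptors (9) were at 0.00 (0.03 against the non-TG libraries alone, -0.08 in the high-GC and 0.10 in the low-GC set) and genes of synaptic vesicles and release (36) at -0.01 (0.07 against the non-TG libraries alone, -0.10 in the high-GC and 0.15 in the low-GC set).

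Housekeeping lists lay near 0 in the deposited means. Their medians were 0.05 for respiratory complex I, 0.02 for complexes II to V, 0.02 for mitochondrial ribosomal proteins, -0.03 for glycolytic enzymes, 0.02 for the lysosomal V-ATPase and -0.03 for chaperones of the endoplasmic reticulum. Those of cytoskeleton and transport were 0.04 for tubulins and microtubule proteins, -0.01 for motor proteins, 0.01 for solute carriers and 0.03 for protocadherins. Within the sets the medians of these lists ran from -0.10 (endoplasmic reticulum chaperones) to 0.16 (tubulins and microtubule proteins), both in the low-GC set, and several had the other sign. Meningeal genes (2 transcripts) and the single ependymal transcript, *Foxj1*, were at 0.17 and 0.17, but *Foxj1* was at -0.13 against the non-TG libraries alone and -0.11 in the low-GC set. Beyond the lists, *Id4*, an inhibitor of DNA binding by helix-loop-helix factors, was at 571 normalized reads in the high-GC GS LRRK2 TG library against 1001 and 1005 in non-TG, and at 549.8 against 815 in the low-GC set. It was lowest in GS LRRK2 TG among all libraries of each set, with a change of -0.62 (-0.75 against the non-TG libraries alone). *Ddit4l*, an inhibitor of mTOR signalling, had -0.52 (-0.88 against the non-TG libraries alone), and the high-GC GS/DA LRRK2 TG library was lower still, at 77.6 against 146 in GS LRRK2 TG. *Nnat*, a small membrane protein of neurons, was at 2931 against 1467 and 2306, and at 956 against 773, highest in GS LRRK2 TG in both sets.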
